A study of Mus musculus with 24 samples.

Results

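The 9 genes described here mark the red cell lineage: the adult globins Hba-a1, Hba-a2, Hbb-bs and Hbb-bt, the embryonic globins Hba-x, Hbb-y and Hbb-bh1, the heme synthesis enzyme Alas2 and the membrane anion exchanger Slc4a1. They were taken by symbol from the deposited matrix of gene counts, and all 9 were found among its 52178 genes. The samples were cartilage explants of C57/BL6 mice, an inbred strain, and the labels name no transgene or mutation. Hip caps were the femoral head cartilage of 4-week-old males, with both caps of 1 mouse pooled per library and, in the study's methods, without subchondral bone. Metatarsals were cartilage rudiments from E15 embryos, with 6 pooled per library. Each explant was cultured, held in a water-filled pressure vessel for 1 h at 0 MPa (control), 5 MPa or 50 MPa of hydrostatic pressure (the sample labels write mPa) and frozen 24 h later, which gave 6 groups of 4 libraries. The hip cap and metatarsal explants were kept in different culture media, so age, site and medium changed together between the tissues and cannot be told apart.

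Hemoglobin is a tetramer of alpha-like and beta-like globin chains around heme. In the mouse embryo the first, yolk sac-derived (primitive) red cells use the embryonic chains made by Hba-x, Hbb-y and Hbb-bh1, and the definitive red cells of fetal liver and, after birth, bone marrow use the adult chains. Cartilage itself has no blood vessels, and red cells and their precursors reach a skeletal rudiment with the vessels of the perichondrium and the marrow. Mouse reticulocytes, the youngest circulating red cells, still carry globin mRNA.

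The matrix held estimated counts from RNA depleted of ribosomal RNA, and the study described the RNA as partly degraded. The study left out replicate 4 of the hip cap controls and replicate 2 of the 50 MPa hip caps, and the other 22 libraries, 10 hip caps and 12 metatarsals, are the ones compared here. Their totals ran from 4185557 to 25104484 counts with a median of 13273096, and 3 counts corresponded to 0.128 to 0.928 CPM (counts per 1000000 counts of the scaled library) in a library. Libraries differed in sequencing run (8 in run 1 and 14 in run 2) and in type (17 labelled stranded and 5 unstranded). The run was read from a heat map of the study, and its split of all 24 libraries, 9 and 15, does not match the numbers of libraries that the methods give for each sequencing kit, so the run terms and within-run values below rest on an uncertain assignment. The hip cap controls and the hip caps at 50 MPa that were used were all of run 1, the latter all unstranded, and the hip caps at 5 MPa all of run 2 and stranded. Of 10 chondrocyte markers, all were detected in both tissues, with Col2a1 at 14420 to 51161 CPM in the hip caps and 853 to 2617 CPM in the metatarsals. The metatarsals also carried skeletal muscle markers, summed at 434 to 2502 CPM against 18.1 to 50.4 CPM in the hip caps, so they held cells besides chondrocytes. The hip caps carried osteoclast markers, summed at 329 to 1726 CPM against 37.5 to 79.7 CPM in the metatarsals. The 7 globins together took 850 of 149476926 counts in the hip caps and 543 of 155121250 in the metatarsals. In such bulk samples, fewer cells of a type and less RNA per cell cannot be told apart.

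In the reference annotation (GRCm38, GENCODE; the submitters' processing notes name GRCm39, and the matrix holds gene identifiers only) the alpha-like genes lie in one cluster on chromosome 11, in the order Hba-x (ENSMUSG00000055609, chr11:32276400-32278116), Hba-a1 (ENSMUSG00000069919, chr11:32283511-32284465) and Hba-a2 (ENSMUSG00000069917, chr11:32296489-32297298), all on the plus strand. The beta-like genes lie on the minus strand of chromosome 7, where Hbb-y (ENSMUSG00000052187, chr7:103851749-103853216) is followed by Hbb-bh1 (ENSMUSG00000052217, chr7:103841637-103843164), Hbb-bs (ENSMUSG00000052305, chr7:103826534-103828096) and Hbb-bt (ENSMUSG00000073940, chr7:103812524-103813996). Slc4a1 (ENSMUSG00000006574) is at chr11:102348824-102366203 on the minus strand and Alas2 (ENSMUSG00000025270) at chrX:150547375-150570638 on the plus strand. Of the 31-base words of their annotated transcripts, Hba-a1 and Hba-a2 shared 588, which is 75.4% of the words of Hba-a1 and 92.6% of those of Hba-a2. Hbb-bs and Hbb-bt shared 400, which is 54.4% and 59.4% of theirs. The split of estimated counts within either pair is therefore uncertain, and the pairs were also summed.

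The promoter sequences of the RefSeq table (GRCm38.p6) cover 7 of the 9 members, with none for Hbb-bh1 and Slc4a1. Each window runs from 250 bases before to 50 bases after the start. The windows of Hba-a2, Hbb-bs, Hbb-y and Alas2 are shown because they are the most abundant adult alpha and beta chain, the only embryonic chain with more than a few counts, and the member called between library types below. Capitals mark matches to 4 motifs on either strand, so a match on the opposite strand appears as its reverse complement. The motifs are the CACCC box, the CCAAT box, GATAA, which is the core bound by GATA factors, and TATAA, the core of the TATA box. In Alas2 the pair of TATAA matches, on opposite strands, overlap, and its 3 CACCC matches abut.
Hba-a2: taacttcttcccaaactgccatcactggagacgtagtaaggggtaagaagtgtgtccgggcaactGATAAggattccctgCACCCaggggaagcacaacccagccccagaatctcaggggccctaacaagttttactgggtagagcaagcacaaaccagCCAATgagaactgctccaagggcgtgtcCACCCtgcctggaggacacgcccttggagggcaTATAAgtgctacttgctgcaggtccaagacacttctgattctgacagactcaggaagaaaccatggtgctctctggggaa
Hbb-bs: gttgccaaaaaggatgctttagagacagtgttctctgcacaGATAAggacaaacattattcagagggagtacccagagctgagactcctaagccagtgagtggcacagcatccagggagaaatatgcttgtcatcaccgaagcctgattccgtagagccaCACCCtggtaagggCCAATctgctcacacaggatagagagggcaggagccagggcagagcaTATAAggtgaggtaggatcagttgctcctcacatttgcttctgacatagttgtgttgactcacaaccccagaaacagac
Hbb-y: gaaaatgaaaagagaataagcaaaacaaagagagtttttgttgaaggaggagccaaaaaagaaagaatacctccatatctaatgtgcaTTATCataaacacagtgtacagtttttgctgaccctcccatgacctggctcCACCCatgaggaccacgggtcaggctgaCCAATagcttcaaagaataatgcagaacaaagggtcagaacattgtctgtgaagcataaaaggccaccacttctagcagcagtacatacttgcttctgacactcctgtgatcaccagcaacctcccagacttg
Alas2: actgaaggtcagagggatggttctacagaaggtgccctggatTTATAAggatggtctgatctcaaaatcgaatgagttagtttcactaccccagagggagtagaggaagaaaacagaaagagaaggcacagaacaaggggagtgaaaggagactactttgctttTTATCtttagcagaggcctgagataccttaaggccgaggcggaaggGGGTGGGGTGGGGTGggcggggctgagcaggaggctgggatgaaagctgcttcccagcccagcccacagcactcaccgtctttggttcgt
The windows were chr11:32296242-32296541 on the plus strand for Hba-a2, chr7:103827879-103828178 on the minus strand for Hbb-bs, chr7:103853158-103853457 on the minus strand for Hbb-y and chrX:150547167-150547466 on the plus strand for Alas2. Among 32851 promoter windows of the same length, CACCC was present in 57.5%, CCAAT in 37.4%, GATAA in 25.4%, TATAA in 24.9% and all 4 in 1.51%. The 4 adult globins each held all 4. The Hbb-y window held no TATAA, and the windows of Hba-x and Alas2 held no CCAAT. The windows of Hba-a1 and Hba-a2 shared an identical run of 297 bases, whereas the longest run shared by Hbb-bs and Hbb-bt was 14 bases. These matches describe letters in a window and are not evidence of a bound factor.

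Hbb-bs, an adult beta chain, was the most abundant globin per length of transcript in both tissues, with a median of 5.39 CPM per kilobase in the 10 hip caps and 2.13 in the 12 metatarsals. Hba-a2, an adult alpha chain, followed with a median of 2.35 CPM per kilobase in the hip caps and 0.623 in the metatarsals. The medians of Hba-a1 and Hbb-bt were 0.169 and 0.445 CPM per kilobase in the hip caps, and 0 and 0.501 in the metatarsals. All of these levels are low: the highest level of any member in any library used was 10.1 CPM, for Hbb-bs in replicate 3 of the 5 MPa hip caps.

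The CPM of Hbb-bs was 0.544, 3.18 and 0.0953 in the 3 hip cap controls, 5.72, 0.773, 10.1 and 3.81 in the hip caps at 5 MPa, and 3.59, 6.17 and 1.55 in those at 50 MPa. In the metatarsals it was 0.766, 4.6, 2.8 and 0.463 in the controls, 0.943, 2.54, 1.41 and 0.51 at 5 MPa, and 2.31, 0.178, 1.26 and 1.9 at 50 MPa. Every group overlapped every other group that it was compared with. The group means ordered as hip caps at 5 MPa (5.09 ± 3.88 CPM, SD, n = 4), hip caps at 50 MPa (3.77 ± 2.32, n = 3), metatarsal controls (2.16 ± 1.93, n = 4), metatarsals at 50 MPa (1.41 ± 0.931, n = 4), metatarsals at 5 MPa (1.35 ± 0.874, n = 4) and hip cap controls (1.27 ± 1.67, n = 3), and each neighbouring pair in that order differed by less than 1 SD.

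Hba-a2 ran at 0.815, 1.75 and 0.381 CPM in the hip cap controls, 2.08, 0.281, 4.54 and 1.07 CPM at 5 MPa and 1.58, 1.53 and 0.309 CPM at 50 MPa. The metatarsals held 0.191, 1.5, 1.2 and 0.386 CPM in the controls, 0.539, 0.27, 0.294 and 0 at 5 MPa, and 0.397, 0, 0.481 and 0.305 at 50 MPa. The 2 highest metatarsal libraries for Hba-a2 were thus both unpressurised controls, the same 2 that led for Hbb-bs. Summed with its near copy Hba-a1, the alpha pair had a mean of 1.62 ± 1.38 CPM in the hip caps (n = 10) and 0.528 ± 0.482 CPM in the metatarsals (n = 12).

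Hba-a1 had 22 counts in 6 of the 10 hip caps and 14 counts in 5 of the 12 metatarsals, and no metatarsal at 50 MPa had a count. Hbb-bt, the second adult beta chain, was at 0 in the 3 hip cap controls. In the hip caps it was at 0.893, 0.211, 2.83 and 0.439 CPM at 5 MPa and 0.316, 0.416 and 0.309 CPM at 50 MPa. All 12 metatarsals had at least 1 count of Hbb-bt, from 0.0445 to 0.629 CPM. Of the counts of the 4 adult globins, the alpha pair made up 26.7% in the hip caps (95% exact binomial interval 23.8 to 29.8%, 227 of 850 counts) and 21.3% in the metatarsals (17.8 to 25.1%, 109 of 512). These intervals cover counting error only, and amplified reads without molecular identifiers are not independent molecules.

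**Figure D1:**
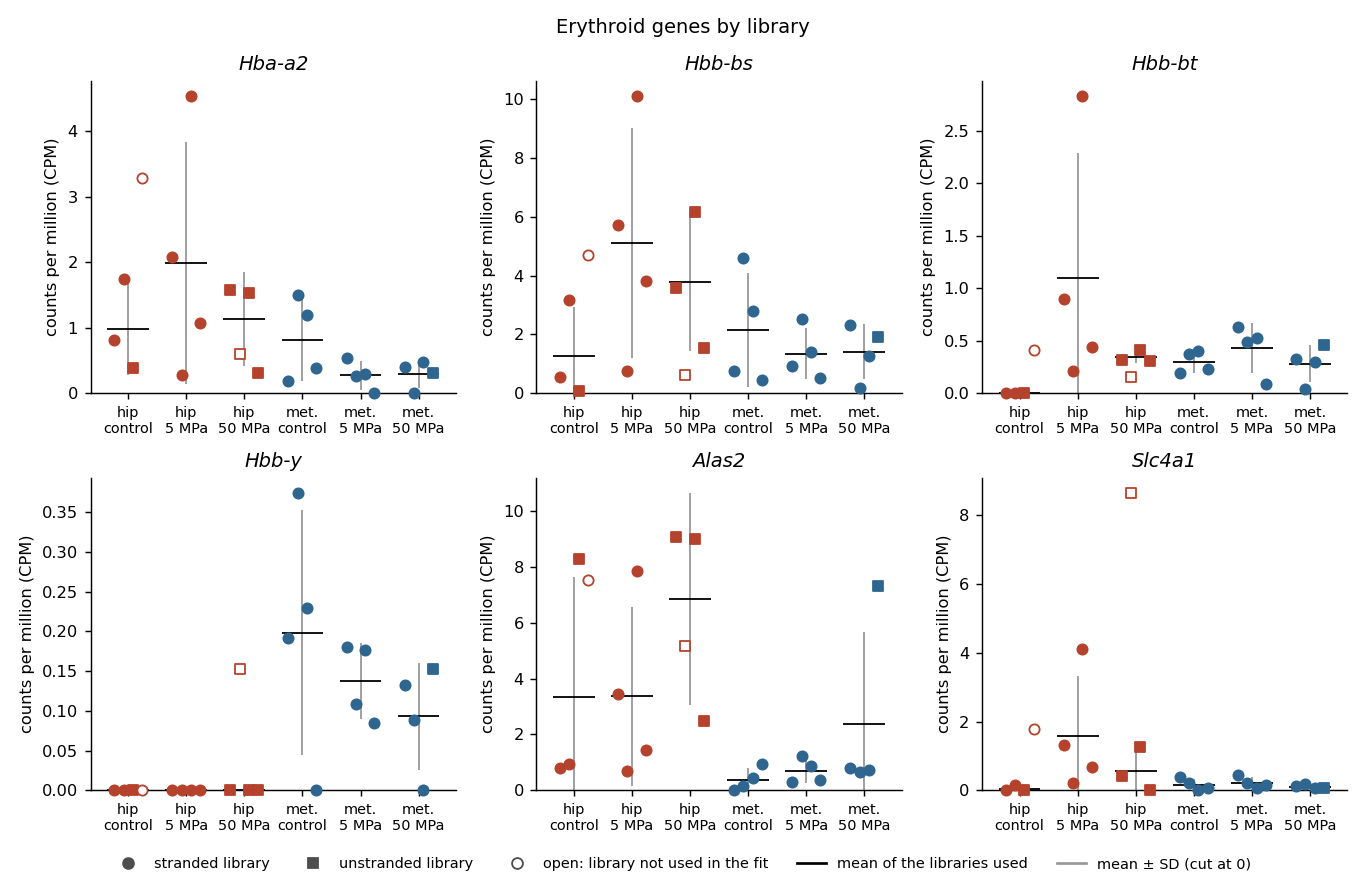
CPM of 6 erythroid genes in each library (vertical axes, linear, different per gene) by group (met., metatarsal). Circles are stranded and squares unstranded libraries, open symbols the 2 libraries not used in the fit, black bars group means of the libraries used and grey bars 1 SD. Hbb-y is at 0 in all 10 hip caps used and reaches 0.374 CPM in the metatarsals, and the metatarsal with the highest Alas2, at 7.31 CPM, is the unstranded one.

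The embryonic globins were detected in the metatarsals, at a few counts per library. Hbb-y, the embryonic epsilon-like beta chain, was at 0.191, 0.374, 0.229 and 0 CPM in the metatarsal controls, 0.18, 0.108, 0.177 and 0.085 CPM at 5 MPa, and 0.132, 0.0891, 0 and 0.152 CPM at 50 MPa. These values stand for 0 to 7 counts per library and 29 in all, in 10 of the 12 metatarsals, and no count was found in the 10 hip caps. The metatarsal mean was 0.143 ± 0.102 CPM (SD, n = 12). Over pooled counts the metatarsal level was at least 5.64-fold higher than the 0.0253 CPM that 3 counts over all 10 hip caps would make. Hbb-y did not pass the filter on low counts and was singled out after its values were seen, so no test is given for it.

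The difference in the level of Hbb-y had a counterpart in the share of beta-like counts. Hbb-y made up 6.71% of the counts of Hbb-y, Hbb-bs and Hbb-bt in the metatarsals (4.54 to 9.5%, 29 of 432). In the hip caps it was 0 of 623, which allows a share of up to 0.482% by 3 counts of the total and 0.59% by the exact interval. Hba-x, the embryonic zeta-like alpha chain, had 1 count in a metatarsal control and 1 in a metatarsal at 50 MPa, and none in the hip caps used. Hbb-bh1 had no count in any of the 24 libraries. All 3 embryonic genes together gave 5.71% of metatarsal globin counts (3.91 to 8.01%, 31 of 543) and 0 of 850 in the hip caps, which allows up to 0.353% by 3 counts and 0.433% by the exact interval. Among the hip caps, replicate 2 of the 50 MPa group, which the study left out, was the exception, with 2 counts of Hba-x (0.303 CPM) and 1 of Hbb-y (0.152 CPM).

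Alas2, the erythroid form of the first enzyme of heme synthesis, varied more between libraries of a group than between most groups. The hip cap controls were at 0.815, 0.955 and 8.29 CPM, the hip caps at 5 MPa at 3.45, 0.703, 7.83 and 1.46, and those at 50 MPa at 9.07, 9.01 and 2.48. The metatarsals were at 0, 0.16, 0.457 and 0.926 CPM in the controls, 0.314, 1.24, 0.883 and 0.383 at 5 MPa, and 0.793, 0.668, 0.721 and 7.31 at 50 MPa. The third hip cap control and the fourth metatarsal at 50 MPa, which stood far above the other libraries of their groups, were the only unstranded libraries in those groups. Stranded hip caps reached such levels too, at 7.83 CPM in replicate 3 of the 5 MPa group and 7.52 CPM in the control that the study left out.

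Slc4a1, the band 3 anion exchanger of the red cell membrane, was at 0, 0.159 and 0 CPM in the hip cap controls, 1.31, 0.211, 4.12 and 0.684 at 5 MPa and 0.422, 1.25 and 0 at 50 MPa. All 12 metatarsals lay between 0 and 0.449 CPM. Both hip cap libraries that the study left out were higher than the libraries of their groups that were used, at 1.78 CPM for the control and 8.65 CPM at 50 MPa. The 50 MPa library had the highest Slc4a1 of all 24 with only 9 adult globin counts (1.37 CPM), so Slc4a1 and the globins did not run together there.

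The comparison of the tissues asked which genes distinguish cartilage of the growing joint from that of the embryonic limb element. An edgeR quasi-likelihood test on the 22 libraries, with run and library type as terms, tested 21283 genes, of which 4 were members: Hba-a2, Hbb-bs, Alas2 and Slc4a1. The other 5 members did not pass the filter on low counts. It asked for 0.753 counts per 1000000 counts of the library total, before scaling, in at least 3 libraries. Hba-a2 and Slc4a1 passed it only through the hip caps, with 6 and 3 of those above it against 2 and 0 of the metatarsals, so the number of members called is no support for a difference between the tissues. At 5 MPa, 3 of these 4 were higher in hip caps than in metatarsals, against 38.1% of all genes tested that were called in either direction and 18.9% that were higher. The fitted log2 fold change was 2.85 ± 0.82 (SE; 95% interval 1.13 to 4.56) for Hba-a2 (adjusted p = 0.00968), 2.28 ± 0.64 (0.93 to 3.63) for Alas2 (adjusted p = 0.00861) and 2.76 ± 0.70 (1.30 to 4.21) for Slc4a1 (adjusted p = 0.00316). Hbb-bs had a log2 fold change of 1.93 ± 0.87 and did not pass (adjusted p = 0.0945). DESeq2 called the same 3 genes. The pairs summed gave 2.59 ± 0.76 for the alpha pair (adjusted p = 0.0112) and 1.81 ± 0.85 for the beta pair (adjusted p = 0.108). The CPM values overlapped between the tissues for all 4 genes, with Hba-a2 above every 5 MPa metatarsal in 3 of 4 hip caps. Hbb-y, singled out after its values were seen and not tested, was at 0 in the 4 hip caps at 5 MPa. In the 4 metatarsals it was at 0.085 to 0.18 CPM, which is only 2 to 4 counts per library.

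All 8 libraries at 5 MPa were stranded and of run 2, so the tissues did not differ there in run or library type. The calls depended on replicate 3 of the 5 MPa hip caps: without it, none of the 3 members still tested passed, with log2 fold changes of 2.13 for Hba-a2 (adjusted p = 0.0519) and 1.51 for Alas2 (adjusted p = 0.0555), and Slc4a1 no longer passed the filter. Without replicate 2, the lowest of that group, 5 of 5 tested members passed, Hbb-bs and Hbb-bt included. Hbb-bt had not passed the filter of the main fit, where 1 hip cap and 1 metatarsal were above it. Without batch terms 2 passed, as Alas2 had an adjusted p of 0.0601. Over all genes, 8107 were called in the main fit, 7668 without batch terms and 7029 to 9159 when 1 library was left out. All fold changes between the tissues are relative to the TMM scaling: with library sizes alone, 12.1% of all calls at 5 MPa were higher in hip caps, against 49.5%, and the median over all genes was -0.70, against -0.08. The 3 members were still called on that scale, with log2 fold changes of 2.21 for Hba-a2, 1.59 for Alas2 and 2.11 for Slc4a1. In run 2 alone 2 of 4 tested members passed, Hba-a2 and Alas2, and Slc4a1 was below the filter.

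Between the control tissues none of the 4 tested members was called, with 31% of all genes called, and none had an unadjusted p under 0.05. The log2 fold changes of hip caps over metatarsals were 0.69 ± 1.55 for Hba-a2, -0.99 ± 1.64 for Hbb-bs, 1.43 ± 1.19 for Alas2 and -2.02 ± 2.23 for Slc4a1. At 50 MPa none of the 4 was called either, with 20.5% of all genes called and none of the members with an unadjusted p under 0.05. There the log2 fold changes were 3.11 ± 1.50 for Hba-a2 (adjusted p = 0.164), 1.85 ± 1.33 for Hbb-bs, 0.17 ± 0.86 for Alas2 and 3.21 ± 1.74 for Slc4a1 (adjusted p = 0.217). DESeq2 also called none in these comparisons. The interval for Hba-a2 at 50 MPa ran from -0.04 to 6.26 and held the value found at 5 MPa. Without batch terms, Alas2 was called between controls (3.11 ± 1.11, adjusted p = 0.0287) and Slc4a1 at 50 MPa (2.55 ± 0.97, adjusted p = 0.0394). Within run 1 alone, where the metatarsals are 1 library in each comparison, no member was called. Hbb-bt, below the filter, did not overlap between the controls, at 0 in the 3 hip caps and 0.191 to 0.4 CPM in the 4 metatarsals. The left-out hip cap control was above them, at 0.41 CPM, and 1 count in the shallowest of the 3 would have been 0.272 CPM, so a lower level was not detectable at this depth.

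**Figure D2:**
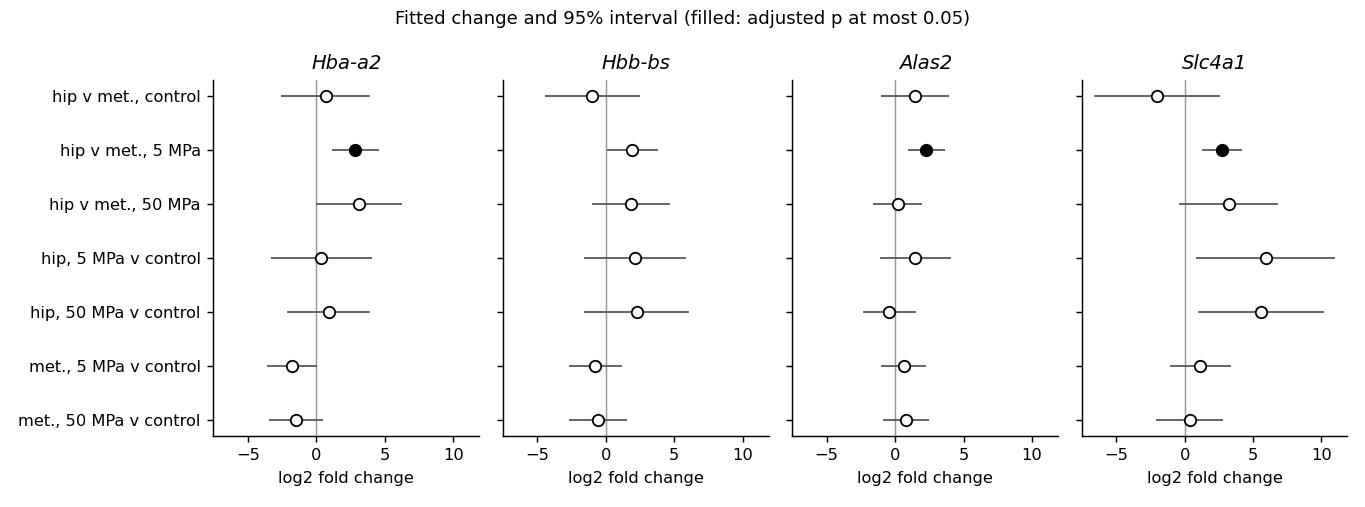
Fitted log2 fold change (horizontal axis) of the 4 members that passed the filter, with 95% intervals, in 7 comparisons of hip caps with metatarsals (met.) or of pressure with control. Filled points have an adjusted p of at most 0.05, and these are Hba-a2, Alas2 and Slc4a1 in hip caps against metatarsals at 5 MPa.

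In hip caps at 5 MPa versus control, 0 of the 4 tested members were called by edgeR, with 0.0235% of all genes called. DESeq2 called none either and gave Hba-a2 and Slc4a1 no adjusted p. Slc4a1 alone had an unadjusted p under 0.05, with a log2 fold change of 5.93 ± 2.46 (adjusted p = 0.254). Its 4 libraries at 5 MPa, at 0.211 to 4.12 CPM, lay above the 3 controls, at 0 to 0.159 CPM. In the shallowest control 1 count was 0.272 CPM, above the lowest 5 MPa value of Slc4a1 and of Hbb-bt, both 0.211 CPM. Such a level was thus not detectable there. The fold of Slc4a1 rests on 1 control count, with 119 counts over 4 libraries against 1 over 3. The ratio of pooled CPM was 34.3, with a 95% counting interval of 6.05 to 1368. Replicate 3 of the 5 MPa group gave 80 of the 119 counts, and without it the ratio was 15.5 (2.62 to 628). With the left-out control, which had 26 counts, the ratio was 2.18 (1.43 to 3.45), and 0.984 (0.587 to 1.67) without replicate 3. Hbb-bt likewise did not overlap, since the 3 controls were at 0, and its 82 counts at 5 MPa made a pooled level at least 7.89-fold higher than 3 counts over the controls. Of these 55 were from replicate 3, and without it the bound was 3.58-fold. With the left-out control, which had 6 counts of Hbb-bt, the ratio was 6.77 (2.98 to 19), and 3.07 (1.24 to 9.08) without replicate 3. The other log2 fold changes were 0.38 ± 1.75 for Hba-a2, 2.16 ± 1.76 for Hbb-bs and 1.48 ± 1.24 for Alas2. All controls used were of run 1 and all 5 MPa hip caps of run 2, so no within-run value exists among the libraries used. The fit takes the run term from the metatarsals. Of these, only replicate 1 of the controls and replicate 4 at 50 MPa were of run 1, and the latter was also unstranded. The left-out control was of run 2 and stranded like the 5 MPa hip caps, and it lay within their range for Slc4a1 (1.78 CPM) and Hbb-bt (0.41 CPM). Without batch terms Slc4a1 was called (4.80 ± 1.33, adjusted p = 0.0219).

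In hip caps at 50 MPa versus control, 0 of the 4 were called by edgeR, with 5.48% of all genes called, nor by DESeq2, which again gave Hba-a2 and Slc4a1 no adjusted p. Slc4a1 was again the member with an unadjusted p under 0.05, with a log2 fold change of 5.58 ± 2.24 (adjusted p = 0.131) and overlapping libraries. Its pooled ratio was 16.6 (2.68 to 685, 22 counts against 1), and 3.04 (1.94 to 4.9) with the left-out library of each group. The latter set 79 counts against 27, of which the left-out libraries alone gave 57 and 26, so its interval does not measure spread between libraries. Hbb-bt lay above the controls in all 3 libraries, with 10 counts in all, at least 2.51-fold over the floor of 3 counts, and with the left-out libraries its ratio was 1.91 (0.647 to 6.28). Hba-a2 and Hbb-bs had log2 fold changes of 0.90 ± 1.44 and 2.26 ± 1.81, and Alas2 of -0.45 ± 0.93. The sign of Alas2 changed when the library type term was left out. It had 0.95 ± 0.99 without batch terms and 0.95 ± 0.90 with sequencing run only, and was not called in either. Its mean was 6.85 CPM at 50 MPa and 3.35 CPM in the controls. Both hip cap comparisons use the same 3 controls, so their values are not independent. The 50 MPa hip caps were all unstranded and 2 of the 3 controls stranded. All were of run 1, and in run 1 alone Slc4a1 had a log2 fold change of 3.42 ± 1.54 (adjusted p = 0.437).

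In the metatarsals, none of the 4 tested members was called at 5 MPa versus control, where edgeR called 0% of all genes and 733 of the 21283 had an unadjusted p under 0.05. None was called at 50 MPa, where it also called 0% and 873 genes had an unadjusted p under 0.05. None of the members was among these at either pressure, and DESeq2 called 13 and 9 genes with no member. Hba-a2 had the lowest values, with log2 fold changes of -1.77 ± 0.88 at 5 MPa (unadjusted p = 0.0596, adjusted p = 1) and -1.51 ± 0.94 at 50 MPa. Hbb-bs had -0.75 ± 0.90 and -0.57 ± 0.99, Alas2 0.63 ± 0.78 and 0.81 ± 0.81, and Slc4a1 1.15 ± 1.08 and 0.36 ± 1.18. The summed CPM of the embryonic globins was 0.212 ± 0.175 in the controls, 0.137 ± 0.048 at 5 MPa and 0.112 ± 0.095 at 50 MPa (n = 4 each), and these ranges overlapped.

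Whether the response to pressure differed between the tissues was tested as an interaction. At 5 MPa none of the 4 members was called, with 0.0188% of all genes called, and none had an unadjusted p under 0.05. At 50 MPa none was called, with 0.442% of all genes called, and Slc4a1 had an unadjusted p under 0.05, with a difference in log2 fold change of 5.23 ± 2.42 (adjusted p = 0.239). DESeq2 called none of the members in either and gave no adjusted p for Slc4a1 in both and for Hba-a2 at 50 MPa. Both differences use the hip cap controls, whose 3 libraries held 1 count of Slc4a1 and 43 adult globin counts in all.

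The library type term of the same fit was also tested, which was chosen after the values were seen. Alas2 was higher in unstranded than in stranded libraries, the 1 of 4 tested members called, with 8.3% of all genes called. Its log2 difference was 3.73 ± 1.03 (adjusted p = 0.0328 by edgeR). The 5 unstranded libraries held 2.48 to 9.07 CPM and the 17 stranded ones 0 to 7.83 CPM. Only the hip cap controls and the metatarsals at 50 MPa held both types, each with 1 unstranded library. The term thus rests on replicate 3 of the former and replicate 4 of the latter, which was also the only library of its group in run 1. The 3 hip caps at 50 MPa, all unstranded, do not inform the term. Hba-a2, Hbb-bs and Slc4a1 had log2 differences of -0.63 ± 1.44, -0.70 ± 1.67 and -2.73 ± 2.41 and were not called. Alas2 lies within Apex2, a DNA repair endonuclease gene on the opposite strand, and 311 of the 2403 exon bases of Alas2 overlap exons of Apex2. Reads without strand from that overlap cannot be assigned to either gene by strand, and whether the quantification used strand is not given in the sources used here. The study's methods describe the libraries as strand specific, whereas the labels call 6 of all 24 unstranded, so what the library type stands for is uncertain. Apex2 itself was at 6.81 to 21.7 CPM in unstranded and 19.6 to 38.5 CPM in stranded libraries, with a log2 difference of -0.41 ± 0.29 (adjusted p = 0.387). The part of this overlap in the Alas2 values was not tested. In the 5 MPa comparison of the tissues all 8 libraries were stranded.

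Libraries that were high in globins were compared with marker lists of other cell types. Replicate 3 of the 5 MPa hip caps had the most adult globin of all 24 libraries, 17.8 CPM and 346 counts summed over the 4 genes, where the other libraries used lay between 0.223 and 8.87 CPM. It was also the highest of the 22 in the summed macrophage (705 CPM), neutrophil (231 CPM) and endothelial (291 CPM) lists, and among hip caps in the B cell list (97.4 CPM). The B cell sum, 16.3 to 97.4 CPM in the hip caps, stood largely for 1 gene, Ebf1, at 14.7 to 78.4 CPM. In the metatarsals that sum was 95.4 to 156 CPM, of which Ebf1 made 93.6 to 154 CPM. The chondrocyte markers of replicate 3 of the 5 MPa hip caps were the lowest of the 10 hip caps, at 24444 CPM. The order did not hold in every library: the third hip cap control was second for neutrophil markers, at 84.5 CPM, with 0.476 CPM of adult globins, the lowest of the hip caps.

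At 5 MPa Hba-a2, Alas2 and Slc4a1 were called higher in hip caps, but Hba-a2 and Slc4a1 had passed the filter only through the hip caps. The neutrophil markers there summed to 27.7 to 231 CPM in the hip caps and 10.1 to 13.6 CPM in the metatarsals. All 8 tested markers of that list of 10 were higher in hip caps, with a median log2 fold change of 4.75 against -0.08 over all genes. In these metatarsals Lcn2 alone was at 7.36 to 11.2 CPM, so the other neutrophil markers were low there. Through which tissue they passed the filter was not examined, so this tally is no support for a difference between the tissues. The 7 tested osteoclast markers were all higher too, with a median of 3.27 and summed levels of 546 to 1708 against 49.9 to 79.7 CPM. Of 9 macrophage markers 4 were higher, with summed levels of 118 to 705 against 83.1 to 126 CPM. Of all genes tested, 18.9% were called higher in hip caps there. None of 8 endothelial markers was called, with summed levels of 64.3 to 291 against 114 to 140 CPM. Among these lists the only marker with no count in the 4 metatarsals at 5 MPa was the osteoclast gene Calcr. The part of these lists in the calls of Hba-a2, Alas2 and Slc4a1 was not tested. Within the 10 hip caps, log2 adult globins had Pearson's r of -0.81 with chondrocyte and 0.73 with B cell markers. For the other lists r was 0.66 (megakaryocyte and platelet), 0.545 (endothelial), 0.507 (osteoclast), 0.44 (neutrophil), 0.403 (macrophage) and 0.263 (skeletal muscle). Within the 12 metatarsals r was 0.65 with neutrophil, 0.58 with osteoclast, 0.422 with endothelial and 0.39 with megakaryocyte and platelet markers. It was 0.236 with chondrocyte, 0.03 with skeletal muscle, -0.0744 with macrophage and -0.246 with B cell markers. The sign thus differed between the tissues for chondrocyte, macrophage and B cell markers. These are descriptions over libraries that share groups, runs and library types, with counts that add up within each library.

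**Figure D3:**
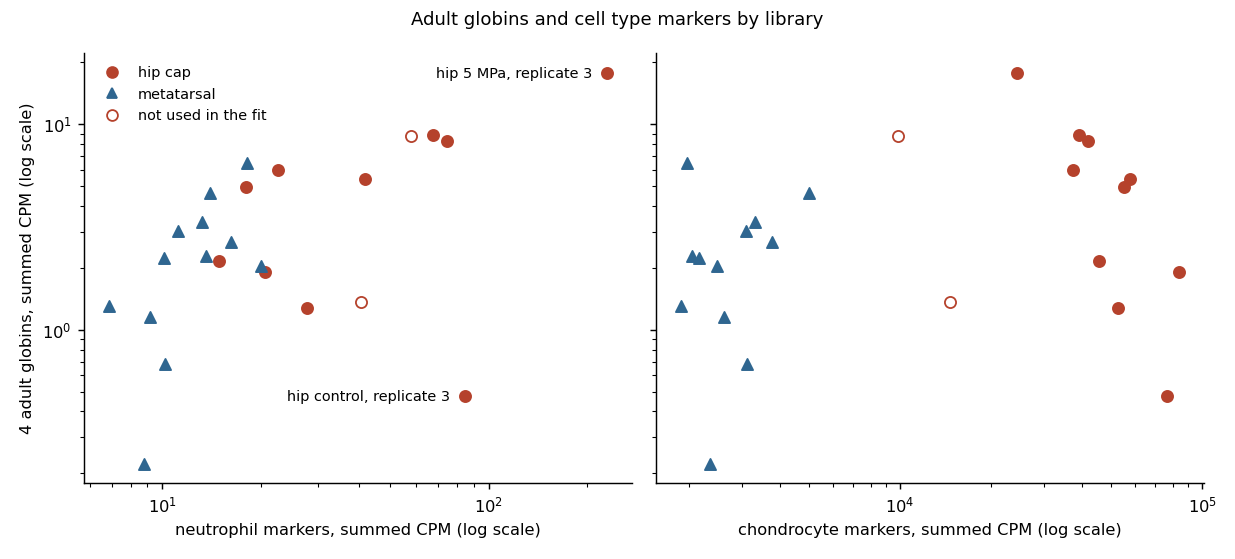
Summed CPM of the 4 adult globins (vertical, log scale) against summed CPM of neutrophil (left) and chondrocyte (right) markers (horizontal, log scale), with 1 point per library. Replicate 3 of the 5 MPa hip caps is at 17.8 CPM of globins and 231 CPM of neutrophil markers, and the third hip cap control at 0.476 and 84.5 CPM.

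Other genes of the red cell programme were read from lists of 69 genes, of which 68 were in the matrix and 51 were tested. Several genes typical of red cell precursors were too low to test. Over the 22 libraries Rhag had 51 counts, Hemgn 64, Gata1, the master regulator of the lineage, 19 and Gfi1b 5. The tested part held genes that other cells also use, beside some better known from the lineage such as Klf1 and Epb42. The most abundant were Hmox1, Tfrc and Fech in heme synthesis and iron, Slc2a1, Epb41 and Aqp1 in the red cell membrane list, Runx1, Bcl11a and Zfpm1 among regulators, and Bnip3l, Prdx2 and Ube2o among enzymes and maturation factors, with means over the 22 libraries from 6.34 CPM for Zfpm1 to 142 CPM for Slc2a1.

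At 5 MPa these lists held calls in both directions between the tissues, for 20 of the 51 genes, or 39.2%, near the 38.1% of all genes. Of the 23 erythroid genes called there, members included, 14 were also called with library sizes alone. In heme synthesis and iron, 4 of 15 tested genes were higher in hip caps and 1 lower, with a median log2 fold change of 0.23. They were Tfrc, the transferrin receptor (1.32 ± 0.24), the mitochondrial carriers Slc25a38 (1.03 ± 0.22) and Slc25a37, known as mitoferrin (0.95 ± 0.18), the heme-degrading oxygenase Hmox1 (0.82 ± 0.25) and, lower, the ferrireductase Steap3 (-1.08 ± 0.20). In the membrane list 3 of 15 were higher and 2 lower, with a median of -0.12. Cd59a, a complement regulator (1.54 ± 0.30), and Xk (1.20 ± 0.30) were higher, as was Tmcc2 (0.37 ± 0.14), which had -0.27 with library sizes alone, and the water channel Aqp1 (-1.84 ± 0.40) and tropomodulin Tmod1 (-1.60 ± 0.40) lower.

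Among 11 regulators 1 was higher and 2 lower, with a median of -0.47. Runx1, a regulator of blood stem cell emergence and of skeletal cells, was higher (0.97 ± 0.23), and Lmo2 (-0.99 ± 0.36) was lower. Bcl11a, known as a repressor of embryonic and fetal globin genes, was lower in hip caps, by a log2 fold change of -3.83 ± 0.20 at 5 MPa (adjusted p = 1.61e-11), -4.00 ± 0.26 between controls (adjusted p = 1.17e-09) and -4.22 ± 0.27 at 50 MPa (adjusted p = 2.10e-09). Its mean was 3.25 ± 0.835 CPM in the 10 hip caps and 53.3 ± 7.08 CPM in the 12 metatarsals, and it is also expressed outside the blood lineage. Of 10 enzymes and maturation factors 6 were higher and 1 lower, with a median of 0.78. Isg20 (2.39 ± 0.36), Fhdc1 (2.14 ± 0.42) and the diphosphoglycerate enzyme Bpgm (1.41 ± 0.20) led the higher ones, and Ube2l6 (-1.56 ± 0.35) was the lower one. The median over all genes was -0.08.

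Between the controls 12 of the 51 were called, 6 in each direction, or 23.5% against 31% of all genes. In heme synthesis and iron, Slc25a38 (1.62 ± 0.33) and Uros, a heme synthesis enzyme (1.34 ± 0.29), were higher in hip caps and Steap3 (-1.38 ± 0.27) lower. In the membrane list Sptb, a beta spectrin (1.47 ± 0.44), and Tmcc2 (0.85 ± 0.21, but -0.05 with library sizes alone) were higher and Aqp1 (-2.48 ± 0.55) and Ermap (-1.53 ± 0.51) lower. Epor, the erythropoietin receptor (-4.13 ± 1.50), was lower, as was Bcl11a. Isg20 (2.35 ± 0.54) and Bpgm (1.14 ± 0.30) were higher and Ube2l6 (-2.03 ± 0.50) lower.

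At 50 MPa, 12 of the 51 were called between the tissues, or 23.5% against 20.5% of all genes. Of the 15 heme synthesis and iron genes 4 were higher in hip caps and 2 lower. Tfrc (1.94 ± 0.38), Hmox1 (1.40 ± 0.40) and Slc25a37 (1.18 ± 0.29) led the higher ones, and Steap3 (-1.89 ± 0.29) and Alad, a heme synthesis enzyme (-0.94 ± 0.26), were lower. The fourth higher one, Slc11a2, had 0.64 ± 0.17, but -0.30 with library sizes alone. Of the other lists, Cd59a (1.39 ± 0.48), Isg20 (2.82 ± 0.57) and Bpgm (1.21 ± 0.32) were higher, and Aqp1 (-2.24 ± 0.57), Bcl11a and Ube2l6 (-2.08 ± 0.49) lower. In hip caps at 50 MPa versus control, Tfrc (1.45 ± 0.36), the iron transporter Slc11a2 (0.90 ± 0.18) and the carbonic anhydrase Car2, which osteoclasts also express (2.66 ± 0.76), rose, and no gene of the 51 fell. These 3 are 5.88% of the 51, near the 5.48% of all genes, and only 1 gene of all was called without replicate 3 of the hip cap controls. In the same comparison 2 of 9 macrophage markers rose, 2 of 10 chondrocyte markers and 1 of 8 neutrophil markers fell, and the 7 osteoclast markers, none called, had a median log2 fold change of 1.54. Their part in these changes was not tested. Of all 51, only Slc11a2 was called in the interaction at 50 MPa, with a difference of 0.87 ± 0.19 (adjusted p = 0.0476). In hip caps at 5 MPa and in the metatarsals at either pressure edgeR called none of them.

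**Figure D4:**
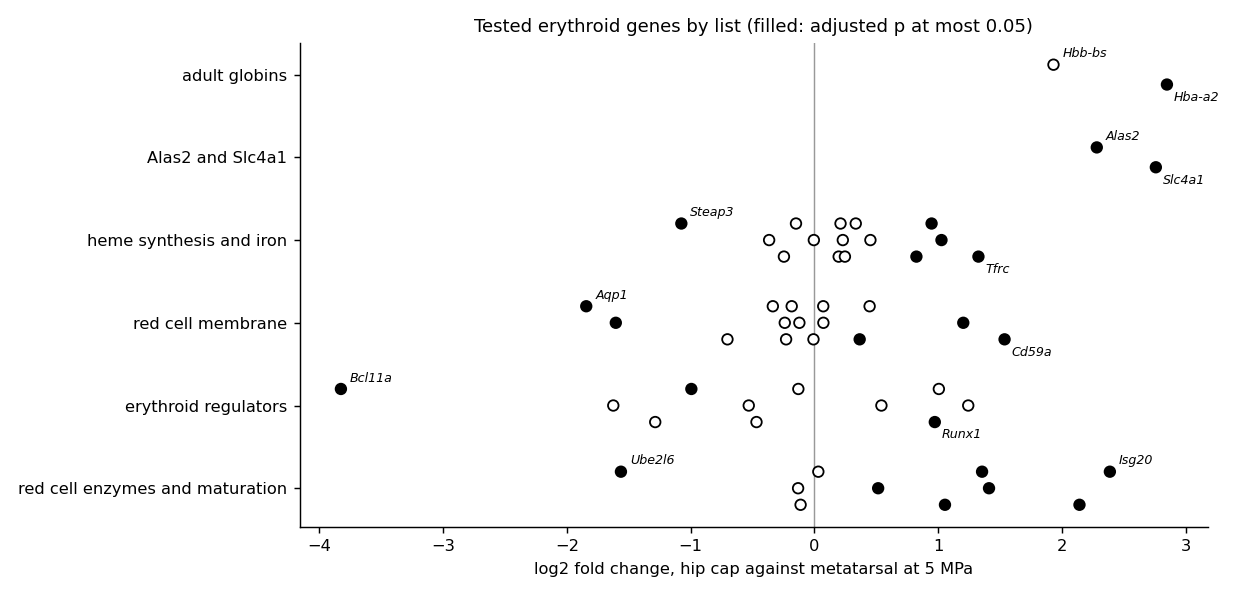
Log2 fold change of hip caps against metatarsals at 5 MPa (horizontal axis) for the tested members and the 51 other tested erythroid genes, by list (vertical, spread within a list for legibility only). Filled points have an adjusted p of at most 0.05, and names are given for the members and for the lowest and highest called gene of each other list. The called members sit between 2.28 and 2.85, and Bcl11a at -3.83.

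Genes whose log2 CPM ran most like the summed adult globins were named by their Pearson correlation, as a description. Over all 22 libraries they were Ctsc, a lysosomal protease that activates neutrophil enzymes (r = 0.799), Pde5a (0.74), Apbb1ip (0.74), Map3k20 (0.71) and Map4 (0.71), of 13886 genes compared. Over the 10 hip caps they were Zfp57, Kcnj2, B4galt3, the monocyte chemokine receptor Ccr2 and Ppargc1a, with r from 0.88 to 0.90. Over the 12 metatarsals they were Atf5, Limk1, Camsap3, Sesn2 and Gpc4, with r from 0.83 to 0.92. For the embryonic globins over the metatarsals they were B4galnt3, Fhdc1, Rprd1b, the cyclin Ccnd2 and Usp10, with r from 0.83 to 0.87. Fhdc1 was the 1 gene of these that also stood in an erythroid list. The highest library was replicate 3 of the 5 MPa hip caps for the first 2 sets and a metatarsal control for the others. An r of at least 0.8 was reached by 0 genes over the 22 libraries, 50 over the hip caps and 16 over the metatarsals. Libraries of these sets share depth, run and library type.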

How the data were processed

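The authors trimmed reads with Trim Galore 0.6.5, quantified them with kallisto (the submitters' notes name GRCm39, and the annotation release is not given in the sources used here) and summarised transcripts to genes with tximport. The deposited values are estimated counts per gene, not normalized. Here they were rounded, and 21283 of 52178 genes passed edgeR's filterByExpr over the 6 groups. The quasi-likelihood test of edgeR 4.0.16 in R 4.3.3 was run on 22 libraries in a single fit with group, sequencing run and library type as terms and TMM scaling. Adjusted p-values are Benjamini-Hochberg over all tested genes of a comparison, called at 0.05, and changes are log2 fold changes with SE. Library type is the labels' own, and sequencing run was read from the study's heat map. Levels in CPM are scaled to the TMM effective library size. Genes of like pattern were ranked on log2 CPM with a prior count of 2, among genes with a mean of at least 1 CPM.

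Hip cap libraries came from separate mice; whether metatarsal pools came from separate litters is not given, so their p-values may measure technical spread. No pair of replicates agreed within sampling noise (lowest chi-square per degree of freedom 9.16). The members and gene lists were chosen with earlier results of these data known. All 9 members are named. Of each other list the text names the 3 tested genes with the highest mean CPM and, per comparison, at most 5 called genes by size of change, and for each pattern the 5 genes most correlated with it. Some genes of these lists are not reported here by name. Counts of genes too low to test were picked after their values were seen. DESeq2 1.42.0, other scaling and filters, no batch terms, a replicate block, single runs or library types, all 24 libraries and leaving out each library were tried as alternatives. The scripts were tested on simulated data. Gene symbols, positions and promoters come from a GRCm38 reference, whose coordinates were not joined to the authors' files, which hold none. Replicate numbers were not treated as pairs in the main fit.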

Additional observations from a re-analysis of the deposited data

Results flagged for a closer look

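In groups of 4 libraries, the gap between an extreme library and its nearest neighbour was set against the range of the group. It was unusually large in 3 of 36 groups of member values examined. Where values vary, chance alone gives about 1 in 20. The 36 include groups at 0 in all 4 libraries, such as those of Hbb-bh1, which could not be flagged. Alas2 was at 7.31 CPM in replicate 4 of the metatarsals at 50 MPa, where the others lay between 0.668 and 0.793 CPM. That library was the only unstranded metatarsal and the only 50 MPa metatarsal of run 1. Hba-x was at 0.0535 CPM in replicate 2 of the metatarsal controls and at 0.0762 CPM in replicate 4 of the metatarsals at 50 MPa, each of them 1 count where the other 3 libraries had none, which makes the gap equal to the whole range by construction, so the rate of 1 in 20 does not hold for groups so near 0.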

How the results depend on the processing

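Depth was a limit: 5 of the 9 members fell below the filter, and none reached 10 counts in each of the 22 libraries, so that filter gave no value. Leaving out 1 library at a time moved the number of members called between hip caps and metatarsals at 5 MPa over 0 to 5, the ends being without hip cap 5 MPa replicate 3 and replicate 2. These fits called 7029 to 9159 of all genes there. With all 24 libraries, 1 member was called between controls (Alas2, 3.33) and 1 at 50 MPa (Slc4a1, 7.60), with 5626 and 2038 of all genes called. Without batch terms, 1 was called between controls (Alas2, 3.11), 1 at 50 MPa (Slc4a1, 2.55) and 1 in hip caps at 5 MPa versus control (Slc4a1, 4.80). The cause was not tested. Over its alternatives, the log2 fold change at 5 MPa between the tissues ran from 2.13 to 3.53 for Hba-a2 (called in 34 of 35), 1.51 to 2.77 for Alas2 (34 of 36), 2.11 to 3.40 for Slc4a1 (33 of the 33 in which it passed the filter, which it did not without hip cap 5 MPa replicate 1 or 3 or in run 2 alone) and 1.23 to 2.50 for Hbb-bs (1 of 35). No called value of a member changed sign. Hba-a2 and Slc4a1 passed the filter only through the hip caps, so their tallies are no support for a difference between the tissues.

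Same-numbered libraries of different groups had correlations of -0.29 to 0.17 over 50 pairs, on log2 CPM less the group mean. These values were not adjusted for run or library type and not set against differently numbered libraries. Pairing by replicate number was thus not tested. With the replicate block, 3 members were called at 5 MPa between the tissues (Hba-a2 2.77, Alas2 2.07, Slc4a1 2.44) and 0 in each of the other 8 comparisons. Of all genes, 7964 were called at 5 MPa between the tissues with this block.

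Over all genes, the 5 called in hip caps at 5 MPa versus control became 577 by DESeq2, 2419 without batch terms, 43 with all 24 libraries and 218 with the replicate block. At 50 MPa versus control, 1166 became 2455 by DESeq2, 2 with all 24 libraries and 0 with each tissue fitted on its own. Between the tissues, 6599 at control became 9735 without batch terms and 1546 in run 1 alone, 8107 at 5 MPa became 5021 with all 24 libraries, and 4355 at 50 MPa became 7920, 2038 and 1135 without batch terms, with all 24 libraries and in run 1 alone. Leaving out 1 library moved the count from 5 to between 1 and 1421 (without hip cap control replicates 3 and 2) in hip caps at 5 MPa versus control and from 1166 to between 1 and 2596 (the same libraries) at 50 MPa. It was 2574 between the control tissues without metatarsal control replicate 1, 1179 between the tissues at 50 MPa without metatarsal 50 MPa replicate 4, 0 to 692 for the interaction at 5 MPa and 3 to 1748 at 50 MPa. The interactions went from 4 to 128 at 5 MPa and from 94 to 1349 at 50 MPa by DESeq2, and the latter to 247 with the replicate block. Scaled by library size only, the share of calls that were higher in hip caps fell from 47.2 to 8.13% between controls and from 51.8 to 7.59% at 50 MPa, with medians over all genes of -0.96 and -0.90, and the erythroid genes still called numbered 7 of 12 and 6 of 12.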
